A study of Homo sapiens with 14 samples.

Results

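Death receptors are surface proteins of the tumour necrosis factor (TNF) receptor family that can start apoptosis from outside the cell, and caspase 8 is the protease they switch on. The 10 genes described here were chosen by name: the ligand gene TNFSF10 (TRAIL), the receptor genes FAS, TNFRSF1A, TNFRSF10A, TNFRSF10B and TNFRSF10D, the adaptor FADD, the initiator caspase genes CASP8 and CASP10, and CFLAR, whose product cFLIP restrains caspase 8. All 10 were found by symbol among the 61541 genes of the count table, and 9 of them had enough counts to be tested. RNA was sequenced from human pancreatic cancer cells labelled BxPC-3 at day 3, in 3 libraries labelled wild type with a control short hairpin (shControl) and 3 labelled HDAC5 knockdown with a hairpin against HDAC5 (shHDAC5). HDAC5 is a class IIa histone deacetylase. A second part of the study immunoprecipitated GATA1, a zinc-finger transcription factor, from PANC-1, another pancreatic cancer line, under a control and an shHDAC5 label at day 3. The control samples there are titled NC, and their peak list is called the list labelled shControl here. How many hairpins or clones stand behind a label was not given in the sources used here. No label tells whether the 3 libraries of a label are separate cultures, and the p-values therefore cover the differences among these libraries alone, which may be technical.

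When a ligand such as TRAIL or Fas ligand binds, the receptor's inner death domain recruits FADD, and FADD recruits procaspase 8 through death effector domains, which caspase 10 and cFLIP also carry. Caspase 8 molecules brought together in this complex cleave one another and then cut the executioner caspases and BID, a protein that carries the signal to mitochondria. TNFRSF10D is a decoy receptor that binds TRAIL without a complete death domain, while TNFRSF1A, the main receptor for TNF, mostly drives inflammatory signalling and reaches caspase 8 through a second complex.

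HDAC5 itself went against the labels, at 95.4, 91.7 and 97.7 CPM (counts scaled to a common library total) under shControl labels and 162, 161 and 169 CPM under shHDAC5 labels (log2 fold change 0.79, adjusted p = 3.95e-40), so each direction given here is between libraries as labelled. The libraries held 15179758 to 17854340 counts. Most genes differed: of 19181 genes tested, 84.7% passed an adjusted p under 0.05, with 44.8% higher and 39.9% lower under shHDAC5 labels. The test was edgeR's quasi-likelihood test, Benjamini-Hochberg adjusted, as for each adjusted p and standard error (SE) of a single gene here. The 9 epithelial markers summed to 1579 to 1604 CPM under shControl labels and 1408 to 1472 CPM under shHDAC5 labels, led by KRT8 at 717 and 1010 CPM, KRT18 at 404 and 327 CPM and KRT7 at 371 and 25.3 CPM on average. ELF3 stood at 91.4 and 63.4 CPM and CLDN4 at 8.43 and 14.5 CPM, while KRT19, EPCAM, CDH1 and ESRP1 were under 3 CPM in every library. SMAD4, a gene known to be deleted in BxPC-3, stood at 49.6 ± 2.59 and 46.8 ± 0.789 CPM (SD, n = 3 each), with CDKN2A, deleted there too, at 149 ± 4.78 and 13.7 ± 0.648 CPM, so the cell line label is not taken as established. Leukocyte markers, from cells in which this pathway is also active, were sparse, with 8 of 10 under 3 CPM in every library, and a summed level of 10.02 to 11.3 CPM against 11.5 to 12.2 CPM. Within that sum PTPRC had 1 and 5 counts over the groups, ITGAM 0 and 145, CD14 3 and 89, and CSF1R 312 and 156, so single markers moved in opposite directions. Fibroblast markers summed to 121 to 131 CPM against 86.0 to 91.6 CPM (6 of 8 under 3 CPM in every library), and endothelial markers to 1.33 to 1.74 CPM against 4.14 to 4.47 CPM (6 of 6). The part of the cell line, or of other cells, in the results was not tested.

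Start windows of 6 members are shown first, because they let the GATA1 peaks be placed beside the RNA changes. They are all the members with a window in the RefSeq promoter table (GRCh38.p14). FAS, TNFRSF1A and CFLAR are the 3 genes that fell most, and CASP8 is the fourth gene without a peak in its window. In the windows of FADD and TNFSF10 a GATA1 peak was deposited. That table holds no window for TNFRSF10A, TNFRSF10B, TNFRSF10D and CASP10, so their starts were not searched for strings or peaks. Each window runs from 250 bases before to 50 bases after the most upstream start in that table, 5′ to 3′ on the gene's strand. The windows of FAS and CFLAR lie inside the annotated genes, which begin upstream of them at 88964050 and 201116164. A peak of the list labelled shControl, at chr2:201115691-201116008, lay just before that annotated CFLAR start and outside the CFLAR window. Capitals mark 3 of the 4 letter strings searched on both strands, GATAA (the core that GATA factors bind), TGANTCA and GGGCGG (a GC box). Any letter was allowed at N in TGANTCA, a looser string than the AP-1 site, which has C or G there.
FAS, chr10:88990548-88990847, plus strand: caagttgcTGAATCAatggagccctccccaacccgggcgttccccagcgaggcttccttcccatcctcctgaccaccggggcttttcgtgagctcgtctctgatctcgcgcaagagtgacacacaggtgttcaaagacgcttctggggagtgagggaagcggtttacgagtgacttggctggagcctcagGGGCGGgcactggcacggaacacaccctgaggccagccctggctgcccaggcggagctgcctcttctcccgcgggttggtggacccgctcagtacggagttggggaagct
TNFRSF1A, chr12:6342027-6342326, minus strand: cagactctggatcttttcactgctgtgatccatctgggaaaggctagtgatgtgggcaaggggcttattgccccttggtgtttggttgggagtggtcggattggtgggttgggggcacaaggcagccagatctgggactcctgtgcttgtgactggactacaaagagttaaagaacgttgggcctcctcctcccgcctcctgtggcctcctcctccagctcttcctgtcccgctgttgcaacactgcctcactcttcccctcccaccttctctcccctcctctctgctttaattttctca
CFLAR, chr2:201118466-201118765, plus strand: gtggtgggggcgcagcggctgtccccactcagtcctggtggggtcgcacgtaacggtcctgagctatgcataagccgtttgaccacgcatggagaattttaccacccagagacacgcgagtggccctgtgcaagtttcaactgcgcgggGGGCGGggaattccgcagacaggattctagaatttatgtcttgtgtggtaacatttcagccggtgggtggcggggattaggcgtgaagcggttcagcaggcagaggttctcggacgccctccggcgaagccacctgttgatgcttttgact
CASP8, chr2:201233213-201233512, plus strand: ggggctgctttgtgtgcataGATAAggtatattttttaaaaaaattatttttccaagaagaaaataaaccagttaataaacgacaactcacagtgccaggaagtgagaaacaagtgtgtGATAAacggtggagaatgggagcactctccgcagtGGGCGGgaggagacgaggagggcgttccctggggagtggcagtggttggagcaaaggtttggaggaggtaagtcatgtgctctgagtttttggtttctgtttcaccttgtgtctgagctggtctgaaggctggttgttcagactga
FADD, chr11:70203046-70203345, plus strand: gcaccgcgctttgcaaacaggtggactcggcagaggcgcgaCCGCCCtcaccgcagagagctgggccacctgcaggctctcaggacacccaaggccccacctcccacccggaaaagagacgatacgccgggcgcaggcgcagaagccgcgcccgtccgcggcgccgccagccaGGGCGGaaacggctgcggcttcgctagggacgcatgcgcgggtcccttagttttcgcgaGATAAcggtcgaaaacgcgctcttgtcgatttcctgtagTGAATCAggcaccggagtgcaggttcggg
TNFSF10, chr3:172523381-172523680, minus strand: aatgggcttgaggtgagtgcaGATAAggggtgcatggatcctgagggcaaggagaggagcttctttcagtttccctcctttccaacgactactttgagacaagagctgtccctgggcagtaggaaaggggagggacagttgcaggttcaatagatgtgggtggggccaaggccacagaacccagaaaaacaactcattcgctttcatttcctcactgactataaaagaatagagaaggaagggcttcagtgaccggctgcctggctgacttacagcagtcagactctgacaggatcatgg
The string GATAA matched 2 times in CASP8, 1 time in FADD and 1 time in TNFSF10, and 0 times in FAS, TNFRSF1A and CFLAR, while 22.7% of the 35116 windows of this length in the table hold it. TGANTCA matched 1 time each in FAS and FADD, both as TGAATCA with A at N, against 7.71% of windows with any letter there. GGGCGG was found in FAS, CFLAR, CASP8 and, 2 times, in FADD, against 45.0%. The fourth string, CACGTG (the E-box core bound by MYC), was in none of the 6 windows and in 7.26% of all. No match overlapped another, and a match is a run of letters, not a known site.

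Most of the tested members were lower under shHDAC5 labels, while the TRAIL receptors TNFRSF10B and TNFRSF10D were higher. Of the 9 tested genes of the set, 7 fell and 2 rose, against 39.9% and 44.8% of all genes tested, and in all 9 the 3 libraries of one label lay apart from those of the other. The labels were apart in 84.8% of tested genes, in 45.0% with shHDAC5 labels above and in 39.8% with them below. A change of at least 2-fold was called for 6 falls and 1 rise, against 20.1% and 26.4% of all genes tested. The median log2 fold change was -1.57 over the 9 members tested and 0.09 over all genes tested. In bulk RNA, fewer cells of a type and less RNA per cell cannot be told apart.

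**Figure D1:**
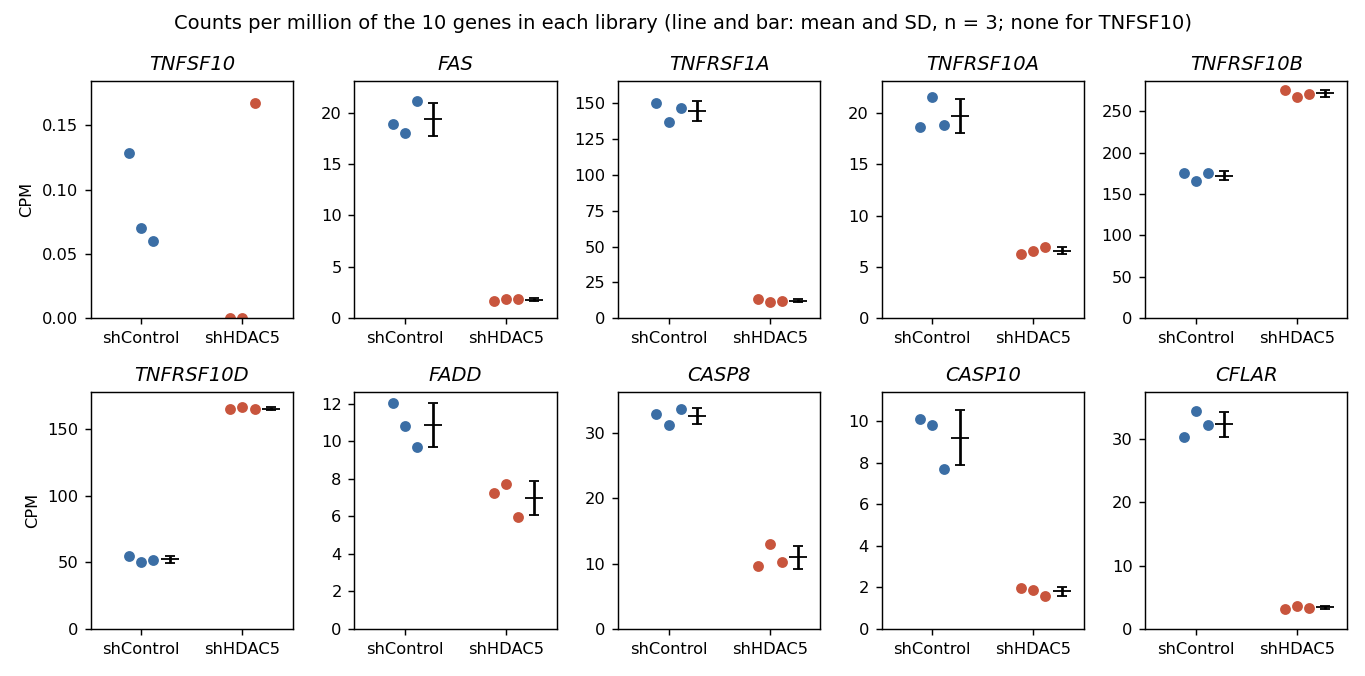
Each panel plots the CPM of 1 gene on a linear axis from 0, with a point per library and, except for TNFSF10, the mean and SD of 3 libraries. TNFRSF10B and TNFRSF10D sit higher in every library labelled shHDAC5, 7 genes sit lower in every such library, and TNFSF10 is near 0 in all 6.

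TNFSF10, the ligand TRAIL, was barely detected. It had 2, 1 and 1 counts in the libraries labelled shControl and 0, 0 and 3 in those labelled shHDAC5. The 2 libraries without a count allow up to 0.177 and 0.172 CPM, taking 3 counts as the limit, and this limit covers counting error only. The gene was removed by the filter on low counts and no fold is given. The ligands of FAS and TNFRSF1A were scarce too. FASLG, the Fas ligand, had 0 counts under shControl labels and 10 under shHDAC5 labels. TNF had 1 and 59 counts, a ratio of 52.4 with a 95% counting interval of 9.05 to 2104. FASLG and TNF were picked out after their values were seen.

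FAS, the receptor for Fas ligand, was among the members with the deepest loss. It stood at 18.9, 18.03 and 21.1 CPM under shControl labels and at 1.65, 1.89 and 1.90 CPM under shHDAC5 labels, from 258 to 350 counts and 28 to 34 counts. The groups were far apart, with the highest library labelled shHDAC5 well under the lowest labelled shControl. The mean fell from 19.3 ± 1.604 to 1.82 ± 0.139 CPM (SD, n = 3), 10.7-fold lower (log2 fold change -3.41, SE 0.142, adjusted p = 2.22e-43). Of all genes tested, 11.1% had a larger change in either direction. The annotated FAS gene (chromosome 10, 88964050 to 89017059, hg38) overlaps ACTA2, which had 118 and 95 counts over the groups and did not pass. Whether counting used strand was not given in the sources used here. Reads from overlapping genes could be shared or lost.

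TNFRSF1A, the main TNF receptor, fell by a like factor from a far higher level. Its libraries held 150.3, 137 and 147 CPM under shControl labels and 13.5, 11.4 and 11.9 CPM under shHDAC5 labels. That is 11.8-fold lower, the deepest fall among the members (log2 fold change -3.57, SE 0.0558, adjusted p = 2.46e-83). Both groups were tight, and 1961 to 2432 counts per library under shControl labels stood against 199 to 228 counts under shHDAC5 labels. TNFRSF1A lies on chromosome 12 (6328771 to 6342076) and no other gene of the RefSeq table overlaps it.

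The 3 TRAIL receptors of the set moved apart although their genes lie side by side within 204970 bases of chromosome 8. TNFRSF10A (death receptor 4), which carries a working death domain, fell from 18.7, 21.6 and 18.8 CPM to 6.26, 6.53 and 6.99 CPM. This was 2.99-fold lower (log2 fold change -1.57, SE 0.107, adjusted p = 1.13e-26). TNFRSF10B (death receptor 5), the other signalling receptor, rose from 175, 166 and 176 CPM to 276, 268 and 271 CPM. Its increase was 1.58-fold (log2 fold change 0.66, SE 0.0302, adjusted p = 1.19e-39), and 61.5% of tested genes changed more. The decoy TNFRSF10D rose from 55.0, 50.3 and 51.3 CPM to 165, 166 and 165 CPM, 3.16-fold higher. The fitted log2 change was 1.66 (SE 0.0400, adjusted p = 3.15e-65), and the 3 libraries labelled shHDAC5 differed by less than 2 CPM. The 3 receptors and TNFRSF10C, which stands between TNFRSF10B and TNFRSF10D, are close relatives, so some reads could be assigned to the wrong one or dropped.

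FADD, the adaptor shared by the receptors, changed least among the members that fell. Its CPM were 12.03, 10.8 and 9.72 under shControl labels and 7.27, 7.73 and 5.98 under shHDAC5 labels. The groups did not overlap, but the gap between the nearest libraries was smaller than the range inside the shControl group. The fall was 1.55-fold (log2 fold change -0.63, SE 0.124, adjusted p = 2.08e-06), and 62.6% of tested genes changed more.

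CASP8, the initiator caspase, was at 32.9, 31.2 and 33.7 CPM under shControl labels and at 9.57, 13.0 and 10.3 CPM under shHDAC5 labels. It was 2.98-fold lower (log2 fold change -1.57, SE 0.0852, adjusted p = 6.11e-34). Changes of this size were common, with 30.1% of tested genes changing more. CASP10, a close relative that FADD also recruits, fell from 10.1, 9.78 and 7.66 CPM to 1.95, 1.89 and 1.57 CPM, 5.10-fold lower. The fitted log2 change was -2.34 (SE 0.177, adjusted p = 1.40e-23), on 28 to 33 counts per library labelled shHDAC5. CFLAR, which encodes cFLIP, an inactive caspase 8 relative that competes for FADD, fell further, from 30.3, 34.3 and 32.2 CPM to 3.19, 3.66 and 3.35 CPM. That was 9.48-fold lower (log2 fold change -3.24, SE 0.108, adjusted p = 4.05e-52), and 12.03% of tested genes changed more. Counts per gene cannot separate the long and short forms of cFLIP. CFLAR-AS1, annotated across CFLAR, also fell but on few reads, with 47 counts over the libraries labelled shControl and 15 over those labelled shHDAC5.

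**Figure D2:**
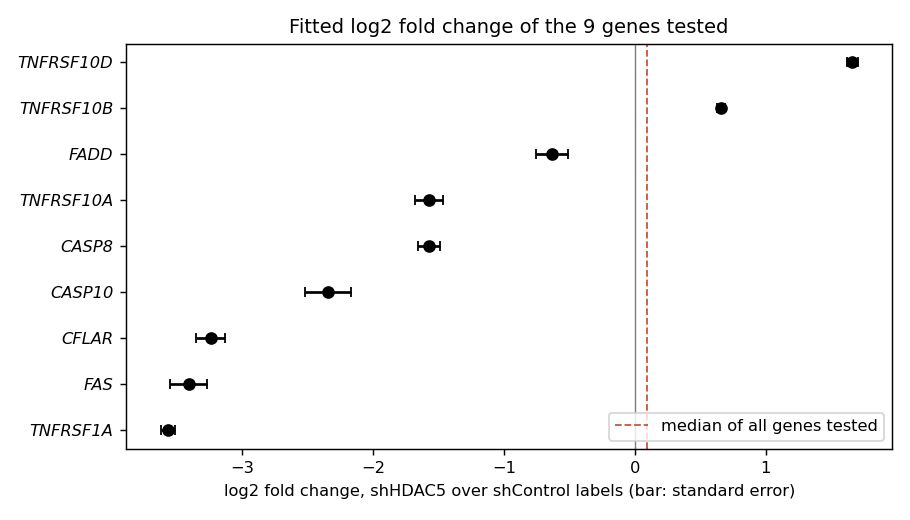
Points are fitted log2 fold changes (shHDAC5 over shControl labels) of the 9 members tested, with bars for the standard error and a dashed line at the median of all genes tested, 0.09. TNFRSF1A, FAS and CFLAR lie beyond -3, TNFRSF10D at 1.66 is the highest, and no bar reaches 0.

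Levels between genes can be set side by side only per length, here as CPM per kilobase of the deposited gene length. Under shControl labels TNFRSF1A (36.1 ± 1.72) and TNFRSF10B (34.4 ± 1.10) led and their libraries overlapped. TNFRSF10D followed at 14.8 ± 0.704, then TNFRSF10A (6.73 ± 0.561) and FADD (6.36 ± 0.679), which also overlapped, and CASP8 at 4.79 ± 0.183. CFLAR (1.44 ± 0.0888), CASP10 (1.21 ± 0.175) and FAS (1.01 ± 0.0841; SD, n = 3 for each value) came last of the members tested, and the libraries of CASP10 and FAS overlapped. Under shHDAC5 labels TNFRSF10B (54.2 ± 0.775) and TNFRSF10D (46.7 ± 0.242) stood over all others, with FADD next at 4.09 ± 0.530 and TNFRSF1A at 3.06 ± 0.273 CPM per kilobase. TNFRSF10A (2.25 ± 0.125), CASP8 (1.61 ± 0.265), CASP10 (0.238 ± 0.0273), CFLAR (0.151 ± 0.0107) and FAS (0.0952 ± 0.00728) followed, with no overlap between neighbours. The deposited lengths of FAS and CFLAR, 19060 and 22478 bases, are far above the 1708 to 7581 bases of the other members, which lowers their level on this scale.

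Ratios between 2 members within a library depend neither on library scaling nor, as a difference between labels, on gene length. Log2 ratios of counts were compared for 5 pairs. With 3 libraries against 3, the two-sided exact permutation test cannot go below p = 0.1. Each of the 5 pairs gave that value (0.1 after adjustment over the 5), with groups that did not overlap. The labels were apart in 84.8% of single genes tested, and the share over gene pairs in general was not counted. The separation is therefore not read as a trait of these pairs. The balance of CFLAR to CASP8 moved from -0.117, 0.135 and -0.0634 under shControl labels to -1.58, -1.82 and -1.61 under shHDAC5 labels. The ratio of the inhibitor to its target was thus 3.14-fold lower, a log2 difference of -1.65 (SE 0.108). CASP10 also lost ground to CASP8, by a log2 difference of -0.74 with a standard error of 0.212, and here the nearest libraries of the groups, at -2.13 and -2.28, almost met. FADD gained on CASP8 by 0.95 with a standard error of 0.161.

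Among the TRAIL receptors, the decoy TNFRSF10D gained on TNFRSF10B, from -1.67, -1.72 and -1.77 to -0.743, -0.689 and -0.720. The difference was 1.00 with a standard error of 0.0340, a ratio 2.01-fold higher. TNFRSF10A lost ground to TNFRSF10B, from -3.23, -2.94 and -3.22 to -5.45, -5.35 and -5.27. This difference of -2.23, with a standard error of 0.108, is a ratio 4.69-fold lower, the widest of the 5.

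**Figure D3:**
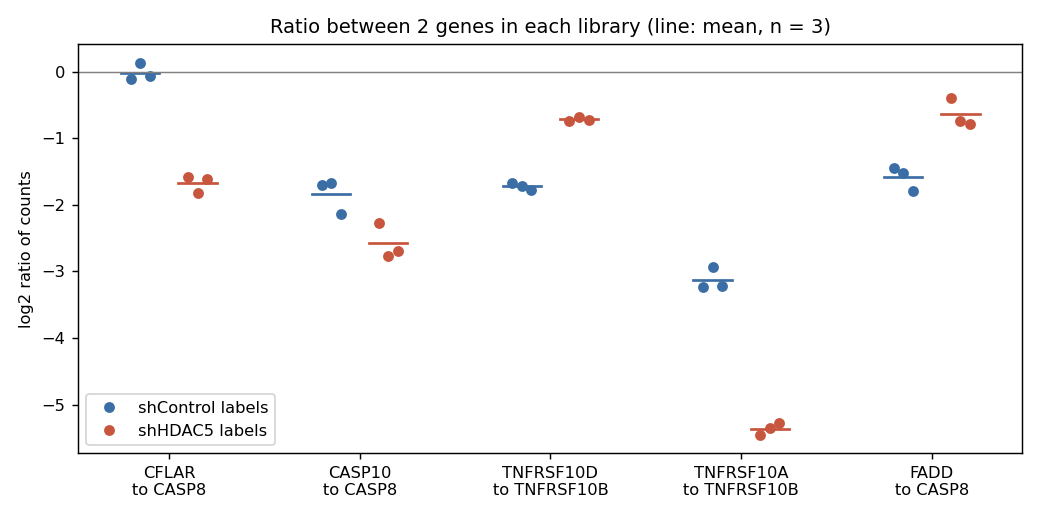
Points are log2 ratios of counts between 2 genes in each library, with a line at the mean of 3 libraries per label. In each of the 5 pairs the points of the labels are separate, most widely for TNFRSF10A to TNFRSF10B, at -3.13 and -5.36 on average. The share of all gene pairs that separate was not counted.

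CFLAR, CASP10 and CASP8 lie in a row within 171548 bases of chromosome 2 (201116164 to 201287711), and all 3 fell. The coding genes beside them did not move as one. Of 5 tested neighbours within 200 kb, 3 rose and 2 fell. Their median log2 change was 0.39, and it turned to -0.30 over 12 tested genes within 500 kb. NDUFB3, a respiratory chain subunit gene next to CFLAR, rose with a log2 fold change of 0.88, and HYCC2 behind it rose by 1.63. On the CASP8 side TRAK2, a mitochondrial transport adaptor, rose by 0.39 and STRADB changed by -0.73, while ORC2, an origin recognition subunit at the far end, changed by -0.55. CFLAR and CASP10 changed more in size than each of the 5 tested neighbours, and CASP8 more than each but HYCC2. FLACC1, between CASP8 and TRAK2, and CATSPERT were too low to test.

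At the TNFRSF10 locus the split ran through the cluster itself. TNFRSF10C, a decoy receptor without an inner domain, rose from 5.76 ± 1.34 to 16.8 ± 0.842 CPM (SD, n = 3) (log2 fold change 1.54, SE 0.118, adjusted p = 4.98e-23). In chromosome order RHOBTB2 (1.20), TNFRSF10B, TNFRSF10C and TNFRSF10D rose, TNFRSF10A fell, and CHMP7 (0.93) and R3HCC1 (0.41) rose again, with LOXL2, a collagen-modifying lysyl oxidase, at -1.42. RHOBTB2 overlaps the end of TNFRSF10B and had 1187 and 3062 counts, and the part of shared reads there was not tested.

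**Figure D4:**
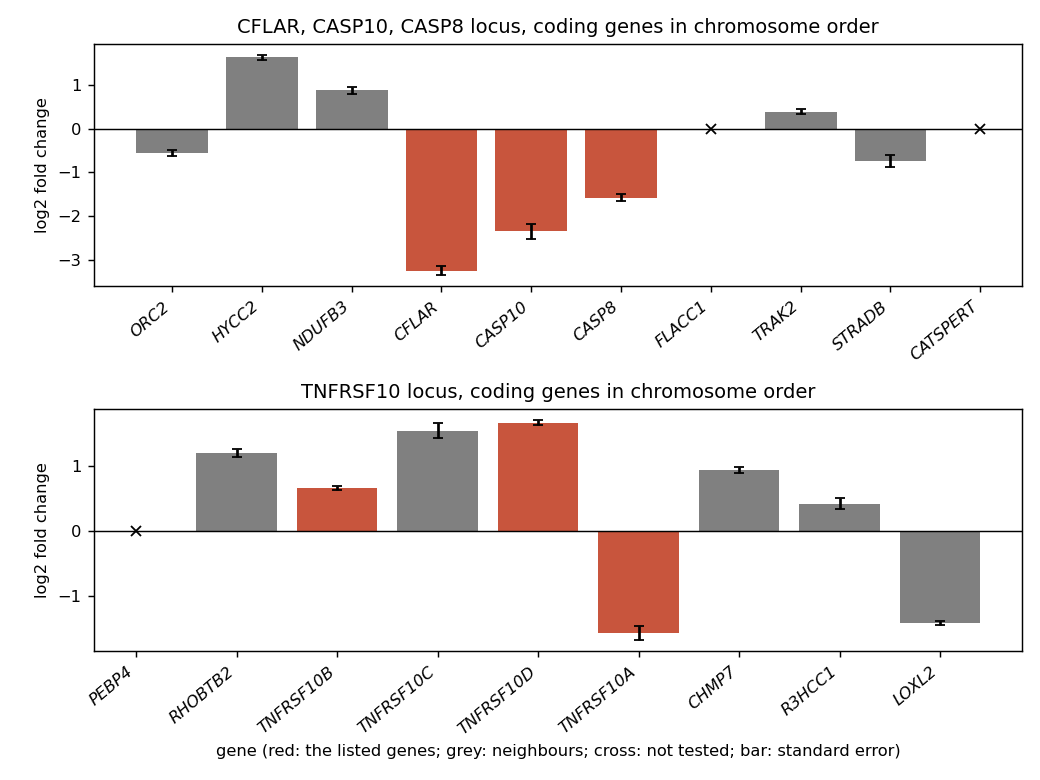
Bars are fitted log2 fold changes with standard errors for coding genes in chromosome order within 200 kb of the outermost member, red for members and grey for neighbours, with crosses for genes not tested. The 3 members on chromosome 2 are all below 0 between neighbours on both sides of it, and TNFRSF10A is below 0 beside 3 receptor genes above it.

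Other ligands and receptors of the family are given by count beside the shares of all genes tested, 44.8% higher and 39.9% lower, and the lists were not tested against those shares. Of 17 listed, 11 were tested, 8 rose (72.7%) and 3 fell (27.3%), and their median log2 change was 1.15. Among those that rose, TNF, NGFR and TNFSF15 (14 and 52 counts) could pass the low-count filter only through the shHDAC5 labels. TNFRSF11B (139 and 11 counts) and EDAR (66 and 14), which fell, could pass it only through the shControl labels. Their directions followed from the filter, so these shares and the median are not read as a trait of the list. LTBR, the lymphotoxin beta receptor, fell from 161 ± 7.30 to 10.1 ± 0.713 CPM (SD, n = 3). Its log2 fold change was -3.99 (SE 0.0562), against -3.57 (SE 0.0558) for its chromosome 12 relative TNFRSF1A. Genes beside these on chromosome 12 were not examined. NGFR, the low-affinity neurotrophin receptor, went from 3 counts over the group to 974, a ratio of 288 with a 95% counting interval of 98.4 to 1401. TNFRSF12A, the TWEAK receptor, rose from 66.0 ± 0.999 to 143 ± 6.19 CPM and TNFRSF21, death receptor 6, from 18.5 ± 2.28 to 45.5 ± 5.04 CPM (SD, n = 3).

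The adaptors, kinases and ubiquitin enzymes that gather on TNF receptors had 10 of 22 higher (45.5%, near the 44.8% of all genes tested), 6 lower (27.3% against 39.9%), 6 that did not pass, and a median of 0.24. BIRC3, a ubiquitin ligase that keeps RIPK1 from joining caspase 8, rose most, from 15.9 ± 1.30 to 569.6 ± 16.9 CPM (SD, n = 3), a log2 fold change of 5.16. CYLD, which removes the chains BIRC3 helps to build, rose from 50.4 ± 4.47 to 121 ± 4.36 CPM. TAB3, an adaptor of the kinase TAK1, rose from 58.1 ± 2.11 to 137 ± 2.97 CPM, and TRAF5 fell from 53.1 ± 2.57 to 16.1 ± 1.01 CPM.

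Necroptosis, the death route that caspase 8 holds back, had 3 of 5 listed genes tested. MLKL, which breaches the membrane in that route, fell from 23.1 ± 1.10 to 1.67 ± 0.513 CPM (SD, n = 3), a log2 fold change of -3.79. PELI1, a ubiquitin ligase, rose from 11.8 ± 1.20 to 32.2 ± 2.78 CPM. PGAM5 passed as lower at -0.12 (adjusted p = 0.0114), but its direction turned to 0.02 with upper-quartile factors and 0.06 with total counts. RIPK3, the kinase that activates MLKL, had 0 counts under shControl labels and 1 under shHDAC5 labels.

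Listed modulators of death domain and death effector domain proteins had 9 of 13 lower (69.2% against 39.9% of all genes tested). Another 3 were higher (23.1% against 44.8%), 1 did not pass, and the median was -0.61. BFAR, a regulator that binds caspase 8, fell from 90.7 ± 1.24 to 33.5 ± 1.85 CPM and TNFAIP8 from 80.8 ± 4.89 to 26.9 ± 3.06 CPM (SD, n = 3). NOL3, an inhibitor known as ARC, fell from 46.6 ± 1.87 to 16.3 ± 0.647 CPM. PEA15, a small death effector domain protein that can block FADD and caspase 8, went the other way, from 67.0 ± 1.17 to 137 ± 1.00 CPM.

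Downstream of caspase 8, 6 of 14 listed genes were higher (42.9%) and 7 lower (50%), near the 44.8% and 39.9% of all genes tested, with 1 that did not pass and a median of 0.06. BID, which caspase 8 cleaves, fell from 35.7 ± 1.22 to 6.55 ± 0.578 CPM (SD, n = 3), the deepest change in the list at -2.44. XIAP, the inhibitor of executioner caspases, fell from 68.9 ± 4.15 to 28.1 ± 1.37 CPM. CYCS, cytochrome c, rose from 134 ± 6.31 to 219 ± 0.836 CPM, and DFFA, an inhibitor of the apoptotic nuclease, from 104 ± 5.18 to 171 ± 1.16 CPM. With total counts in place of scaling factors, 3 rather than 7 of these genes were called lower. Among 5 other caspases, 3 were tested: CASP4, an inflammatory caspase, fell from 50.9 ± 2.41 to 14.4 ± 1.27 CPM, CASP14 rose from 2.42 ± 0.649 to 7.24 ± 0.524 CPM, and CASP2 did not pass.

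**Figure D5:**
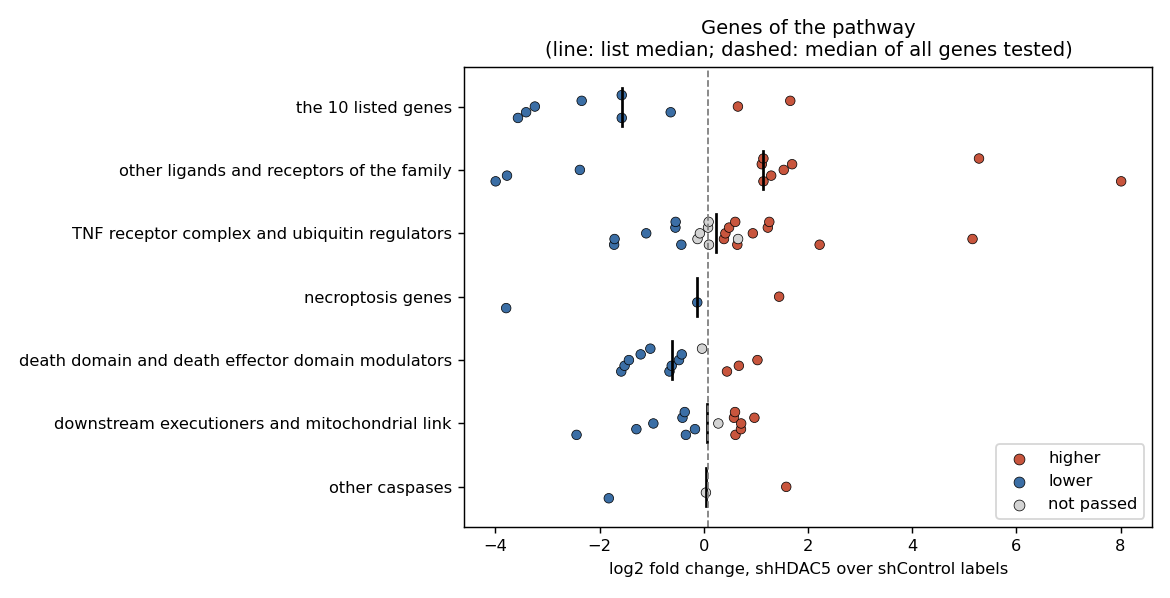
Each point is the fitted log2 fold change of 1 tested gene, red if called higher, blue if called lower and grey if it did not pass, with the list median as a line and the median of all genes tested dashed. The 9 tested of the 10 listed genes have a median of -1.57 and the other ligands and receptors one of 1.15, on either side of the dashed line. Some of the other ligands and receptors passed the low-count filter only through the group where they are high.

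GATA1 peaks were deposited near 6 members in one list and near 8 in the other. The share of all genes with a peak this near was not counted, so these numbers are not read as a trait of the members. The list labelled shHDAC5 is also the longer, with 249139 peaks against 121070. The study's GATA1 data come as 1 peak list per label, without replicates, and the peak names do not match the labels. Names begin with GATA1-SAHA-IP under the shControl label and with GATA1-NC-IP under the shHDAC5 label, where NC is the title word of the control. Within 10 kb of a member's gene body lay 19 peaks of the list labelled shControl, at 6 of 10 genes, and 46 of the list labelled shHDAC5, at 8 of 10 genes. In each list 7 of these overlapped a peak of the other list. None had an authors' q of at most 0.05, where 5.10% of the 121070 peaks in the first list and 0.419% of the 249139 in the second did, so these counts of 0 lie near the background of the lists. The authors' fold enrichment over background ranged from 2.11 to 3.59 in the first set and from 1.64 to 3.20 in the second. The medians were 2.67 near the members against 2.73 over the first list, and 2.53 against 2.33 over the second.

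At FADD, a peak of the list labelled shControl (chr11:70203284-70204021) covered 62 bases of the start window printed above, with a fold of 3.43 and a −log10 q of 0.905, the best q near any member. A peak of the list labelled shHDAC5 (chr3:172523104-172523736) covered all 300 bases of the TNFSF10 window, with a fold of 3.01 and a −log10 q of 0.227. The peaks of highest fold near a caspase 8 locus gene were both in the list labelled shControl. The first, at chr2:201115691-201116008 just before the annotated start of CFLAR, had a fold of 3.51. The next, at chr2:201279577-201279862 within CASP8, had a fold of 3.43. CFLAR, CASP10 and CASP8 had 11, 10 and 11 peaks within 10 kb in the list labelled shHDAC5 and 7, 2 and 3 in the other, some of them shared by neighbouring genes. FAS had 5 and 0, TNFRSF1A 4 and 5, and TNFRSF10D, whose RNA rose most among the members, had 0 in both lists. TNFRSF10B, whose RNA also rose, had 2 and 0, and TNFRSF10A, whose RNA fell, had 0 and 1. The counts are not scaled to the span of each gene, and a link to the RNA changes was not tested. The RNA and the peaks come from cells labelled as different lines.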

How the data were processed

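RNA libraries and GATA1 immunoprecipitations were grouped by the titles in their labels. The authors deposited whole-number read counts per Ensembl gene with gene lengths, not normalized. Per the submitters' processing notes, featureCounts 2.0.1, fastp 0.23.2, MACS2 2.2.7.1 and hg38 were used, without roles. The aligner, annotation release and strand setting were not given in the sources used here. Peak lists give the authors' fold enrichment (a ratio) and a deposited −log10 q for each peak, both used as given. It was not given in the sources used here whether immunoprecipitations were pooled.

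Symbols were found for 61369 of 61541 gene IDs. Low genes were removed with filterByExpr, TMM factors applied, and group alone tested with edgeR 4.0.16 (quasi-likelihood, R 4.3.3), with Benjamini-Hochberg adjustment over all genes tested and a threshold of 0.05. CPM use TMM-scaled library sizes, so a group with a larger factor shows lower values. Standard errors of single genes were taken as the fitted change divided by the root of F. Those of ratios come from the variances of the log2 ratios among the 3 libraries of each label. Ratios add 0.5 counts to each gene and use an exact permutation test (scipy 1.17.1). Coordinates and start windows come from RefSeq tables of GRCh38.p14, the same assembly as hg38. 

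The members, lists and tests were chosen with earlier results of these data known. All members, HDAC5 and up to 4 called genes per list with the smallest adjusted p are named, with genes beside the members at both loci, marker genes and peaks at gene starts or of highest fold. FASLG, TNF, RIPK3, CASP2, CFLAR-AS1, ACTA2, SMAD4 and CDKN2A are named besides these. Alternatives were DESeq2 1.42.0, other scalings and filters, a stricter threshold, a block for the replicate number, each library left out, another added count, and other windows and peak criteria. Protein sequences and input libraries were not analysed here.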

Additional observations from a re-analysis of the deposited data

How the results depend on the processing

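Each of the 9 tested members kept its direction and its call under all 14 alternatives run for it. Over these the adjusted p reached at most 5.69e-04, for FADD, whose log2 fold change ranged from -0.73 to -0.45. Upper-quartile factors and total counts raised the median log2 fold change of all genes by 0.14 and 0.18. Leaving out single libraries gave 8499 to 8883 genes higher and 7622 to 7718 lower. The 34 results gave 400 comparisons of a result with an alternative, and 385 of these comparisons were rated as unchanged. That meant the same call, a count within 1.5 times or, for ratios between members, the same direction alone.

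Necroptosis genes called lower were 1 rather than 2 with DESeq2, RLE factors, upper-quartile factors, total counts and a threshold of 0.01. Downstream genes called lower were 3 with total counts. Other caspases called higher were 2 with upper-quartile factors and total counts, and called lower 2 without the filter. With a window of 500 kb the median of the neighbours turned to -0.30 from 0.39 at the CFLAR, CASP10, CASP8 locus and was 0.41 rather than 0.93 at the TNFRSF10 locus, because more genes entered. Peaks near the members were 50 and 76 with a window of 50 kb in the lists labelled shControl and shHDAC5, and 0 and 0 at an authors' q of at most 0.05. With the replicate number as a block, the members called were again 2 higher and 7 lower, and 8514 and 7558 genes were called over all. Same-numbered libraries correlated in their deviations at -0.0156, 0.00321 and 0.0102 (across genes), and the block changed no call of a member, no count of a pathway list and no call of the pathway genes named by the rule. HDAC5, CFLAR-AS1, TNFRSF10C and the neighbouring genes were not run with the block.

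TNFSF10, FASLG, TNF and NGFR rest on few reads in at least 1 group, and the depth limits their values. The depth leaves CASP10, CFLAR and FAS with 28 to 64 counts in the libraries labelled shHDAC5.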
